A study of Mus musculus with 6 samples.

Results

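The genes described here encode the proteasome, the protease complex that degrades ubiquitin-tagged proteins, and were followed in thymocytes of wild type mice and of knockout mice without the microRNA locus miR-181a-1/b-1. Members were all gene models with a symbol made of Psma, Psmb, Psmc, Psmd, Psme, Psmf or Psmg and a number. This rule found 45 symbols among 37867 gene models, each with a single row in the deposited table. Psmc3ip shares only the start of its name, encodes a cofactor of meiotic recombination and was set apart, with 4.99 FPKM in knockout and 10.7 in wild type cells. Of the other 44 symbols, 43 had been tested by the authors. The untested symbol was Psma8, the alpha subunit of the testis form of the complex, at 0.130 FPKM in knockout and 0.141 in wild type cells. Psmb11, the beta subunit of cortical thymic epithelium, and the core assembly chaperones Psmg1, Psmg2 and Psmg4 were not analysed here.

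As background, the proteasome has a barrel-shaped core particle and caps that decide what enters it. The core is built from outer rings of alpha subunits, which gate the channel, and inner rings of beta subunits, of which Psmb5, Psmb6 and Psmb7 carry the chymotrypsin-like, caspase-like and trypsin-like activities. In lymphoid cells, and in other cells exposed to interferon, newly made cores can take up Psmb8, Psmb9 and Psmb10 in their place, which gives the immunoproteasome and favours peptides that bind MHC class I. The regulatory particle, built from Psmc ATPases and Psmd subunits, recognises ubiquitin chains, removes them and unfolds the substrate. The Psme activators are alternative caps that open the channel.

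Both genotypes were of the C57bl6 strain. The knockout lacked miR-181a-1 and its neighbour miR-181b-1, and 3 sorted CD4+CD8+ populations of each genotype were sequenced. Such double-positive cells are immature T cells at the stage of selection on their receptor. The labels give no age, do not say whether the deletion was limited to T cells, and do not tie the populations to separate animals, so any spread between them may be technical.

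The authors deposited 1 FPKM value per genotype (fragments per transcript length and library size), with their own log2 ratio, test statistic and q-value. No value of a single population was used here, so there is no SD between replicates, the depth is unknown, and whether groups overlap cannot be read. Every error below is the standard error (SE) of the log2 ratio that the deposited statistic implies, and what spread that statistic covers was not given in the sources used here. Ratios are written as knockout over wild type, and a gene was called changed where the deposited q was under 0.05. FPKM summed over the table to 297352 in knockout and 360688 in wild type cells, and the 13834 tested models had a median log2 ratio of -0.17. The 9 double-positive markers found had a summed level of 5847 FPKM in knockout and 6483 in wild type cells, and none was called. The deleted microRNA genes were not analysed here, so their RNA gave no check of the genotype labels.

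Proteasome transcripts were lower in knockout cells or not called. By the q of the authors' deposited table, 13 of the 43 tested genes, or 30.2%, were lower and 0 were higher, against 15.3% lower and 1.79% higher among all tested models. At an unadjusted deposited p under 0.05 the counts were 17 lower and 0 higher, and the share of all tested models at this threshold was not computed. The median log2 ratio of the 43 genes was -0.46, which is -0.30 relative to the median of all tested models. Ratios were below 0 for 38 genes and above 0 for 5. The 13 genes were the alpha subunit Psma7, the constitutive beta subunits Psmb2, Psmb4, Psmb5 and Psmb6, the immunoproteasome subunits Psmb8 and Psmb10, the regulatory subunits Psmc3, Psmd3, Psmd4 and Psmd13, and the assembly chaperones Psmd9 and Psmg3. When ratios were taken relative to the median of all tested models, 9 genes were called, and Psmb2, Psmb4, Psmb8 and Psmd13 were not. The share of all tested models called on this centred scale was not computed. After a trend of the ratio with the GC content and length of the transcript had been removed from all genes, as described below, 0 of 42 members were called in either direction.

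**Figure D1:**
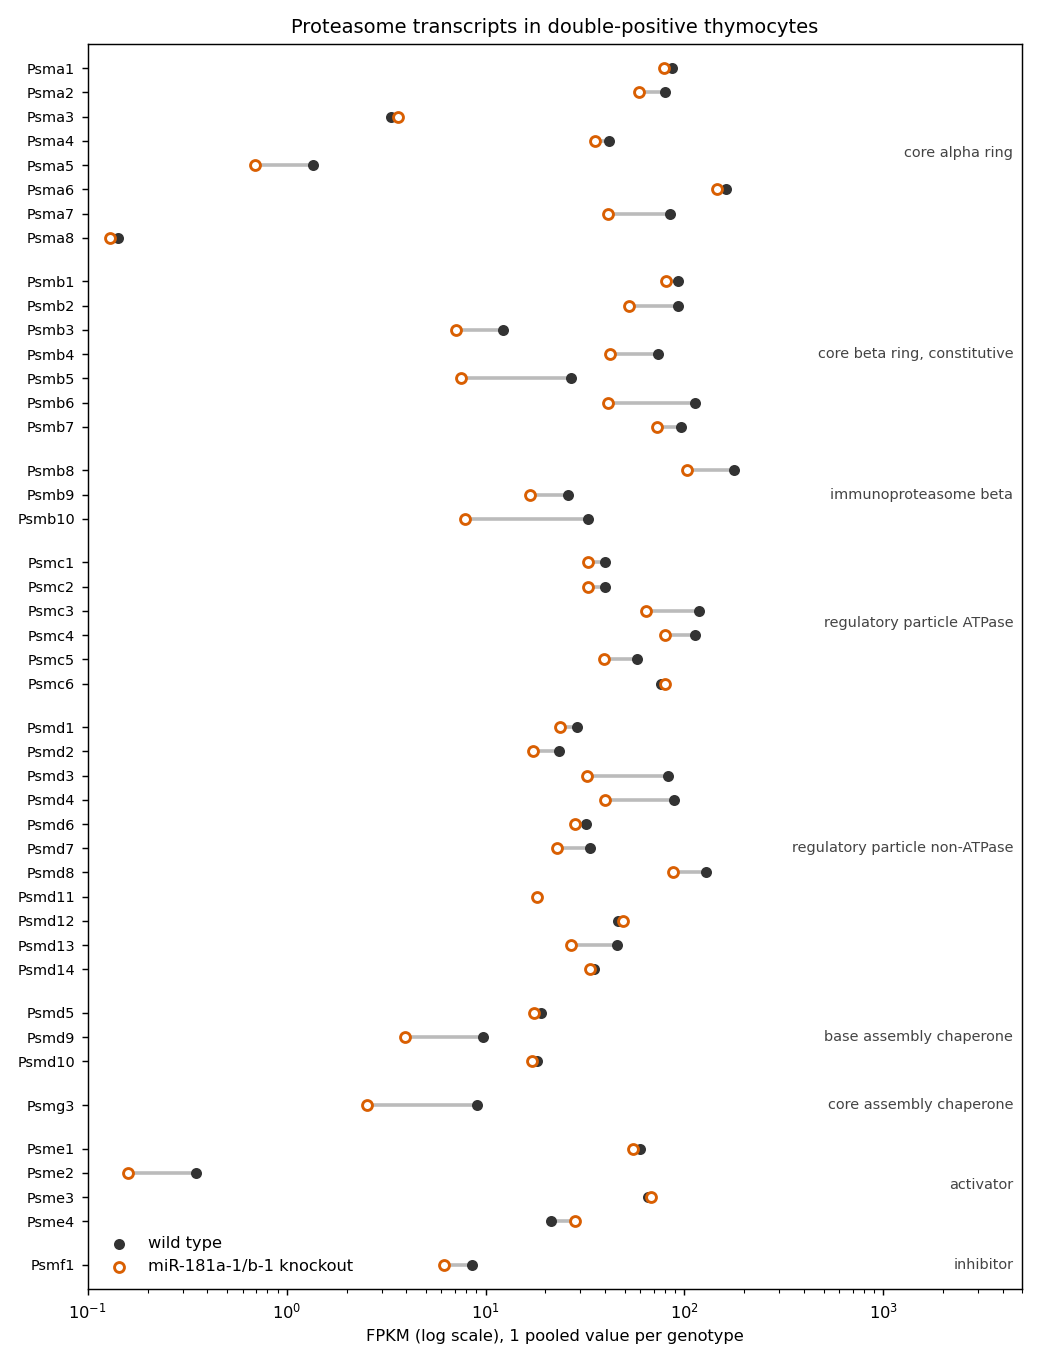
Level of each of the 44 proteasome genes in FPKM on a log axis, 1 pooled value per genotype, with filled points for wild type, open points for the knockout and a line joining the 2 values of a gene. Open points lie left of filled points for most genes, with the longest lines at Psmb10, Psmg3 and Psmb5, and Psma8, Psme2 and Psma5 lie near the left edge.

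All 3 immunoproteasome subunits were expressed in both genotypes, and Psmb10 had the lowest ratio of all 43 tested members. Psmb10, the trypsin-like subunit also known as MECL-1, was listed at 7.86 FPKM in knockout and 32.8 in wild type cells. Its level was thus 4.17-fold lower in the knockout, a log2 ratio of -2.06 (SE 0.33, q = 3.33e-08 in the authors' deposited table). This ratio lay at the 2.66th percentile of all tested models. The gene lies in mm9 at chr8:108459663-108462005. Psmb8, the chymotrypsin-like subunit also known as LMP7, was listed at 103 FPKM in knockout and 177 in wild type cells. It was called lower in the authors' deposited table (log2 ratio -0.78, SE 0.25, q = 0.0131), but its ratio was 0.12 after removal of the trend. Psmb9, the caspase-like subunit LMP2, had 16.7 FPKM in knockout and 26 in wild type cells, and its log2 ratio of -0.64 (SE 0.30, q = 0.142 in the authors' deposited table) was not called. After removal of the trend the ratio of Psmb9 was 0.26 and that of Psmb10 -1.0 (q of the residual 0.0832), so the 3 subunits of the immunoproteasome no longer had the same sign.

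Psmb8 and Psmb9 sit in the MHC class II region of chromosome 17, interleaved with the genes of the TAP transporter, which carries proteasome products into the endoplasmic reticulum. In mm9 the model of Psmb9 (chr17:34319043-34324275) ended 548 bases before that of Tap1, Tap1 ended 1598 bases before Psmb8 (chr17:34335343-34338211), and Psmb8 ended 3298 bases before Tap2. Along this stretch Tap1 had 21.9 FPKM in knockout and 33.7 in wild type cells, a log2 ratio of -0.62 (SE 0.29, q = 0.141 in the authors' deposited table), close to that of its neighbour Psmb9. Tap2 had the lowest ratio of the 4, at 33.7 against 84.3 FPKM (log2 ratio -1.33, SE 0.25, q = 4.87e-06 in the authors' deposited table). All 4 genes had transcripts of 55% GC or more. After removal of the trend their log2 ratios were 0.26 for Psmb9, 0.34 for Tap1, 0.12 for Psmb8 and -0.42 for Tap2, none of them called.

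Of the constitutive catalytic subunits, Psmb5 and Psmb6 were lower in the knockout while Psmb7 was not called. Psmb5, the chymotrypsin-like subunit and the main target of proteasome inhibitors such as bortezomib, had 7.55 FPKM in knockout and 26.7 in wild type cells (log2 ratio -1.83, SE 0.35, q = 1.14e-05 in the authors' deposited table). Psmb6, the caspase-like subunit, had 41.4 and 113 FPKM (log2 ratio -1.45, SE 0.30, q = 4.26e-05 in the authors' deposited table). Psmb7, the trypsin-like subunit, stood at 72.5 FPKM in knockout and 96.4 in wild type cells, with a log2 ratio of -0.41 (SE 0.25) and q = 0.287 in the authors' deposited table. The structural subunits Psmb2 and Psmb4 were called lower at 1.77-fold and 1.74-fold (q = 0.0186 and 0.0172 in the authors' deposited table), Psmb3 had a similar log2 ratio of -0.79 with a wider error (SE 0.41, q = 0.195 in the authors' deposited table), and Psmb1 had -0.20 (SE 0.24). In all, 4 of the 7 constitutive beta genes (57.1%) were called, against 15.3% lower among all tested models. The median log2 ratio of the 7 was -0.80 and became -0.21 after removal of the trend. Psmb6 shares its span with an antisense long noncoding model, linc-Psmb6-AS, which was listed at 4.74 FPKM in knockout and 4.62 in wild type cells. Psmb2, Psmb5 and Psmd4 share theirs with noncoding models of at most 1.02 FPKM. Whether reads were counted by strand was not given in the sources used here, so reads of such pairs may not have been separated.

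Each immunoproteasome subunit takes the place of 1 constitutive subunit, and FPKM, being per length, allows the 2 transcripts to be set side by side. For the chymotrypsin-like pair, Psmb8 over Psmb5 was 13.6 in knockout and 6.63 in wild type cells. Psmb5 has a near-identical copy elsewhere in the genome, as described below. Its level is thus uncertain, as are the values of this pair and the sums that include Psmb5. For the caspase-like pair, Psmb9 over Psmb6 was 0.403 and 0.230. For the trypsin-like pair, Psmb10 over Psmb7 was 0.108 and 0.340. The first and last pairs thus moved in opposite directions: on the log2 scale the Psmb8 pair differed by 1.04 between genotypes (SE 0.43, 95% interval 0.20 to 1.89), and the Psmb10 pair by -1.65 (SE 0.41, 95% interval -2.45 to -0.84). The interval of the Psmb9 pair included 0 (0.81, SE 0.43, 95% interval -0.03 to 1.65). These intervals treat the implied errors of both genes as independent, which cannot be checked here. After removal of the trend the differences were 0.73, 0.54 and -0.90, in the order of the pairs as given above. With the same errors the interval of the Psmb8 pair then included 0 (-0.11 to 1.58), and that of the Psmb10 pair did not (-1.70 to -0.096). With a trend of coding-sequence GC content and length, described below, residuals were -0.99 for Psmb10 and -0.39 for Psmb7. They were 0.069 for Psmb8, -0.89 for Psmb5, 0.33 for Psmb9 and -0.57 for Psmb6. On that scale the gap of the Psmb10 pair was smaller, those of the other pairs were larger, and no interval was computed. The members of the first pair differ little in GC content (55.8% and 56.6%), whereas Psmb10 has 56.5% and Psmb7 48.7%. Summed over the 3 pairs, immunoproteasome transcripts made up 51.2% of the total in knockout and 49.97% in wild type cells. The sums were 128 FPKM for the immunoproteasome and 121 for the constitutive subunits in knockout cells, against 236 for each in wild type cells.

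**Figure D2:**
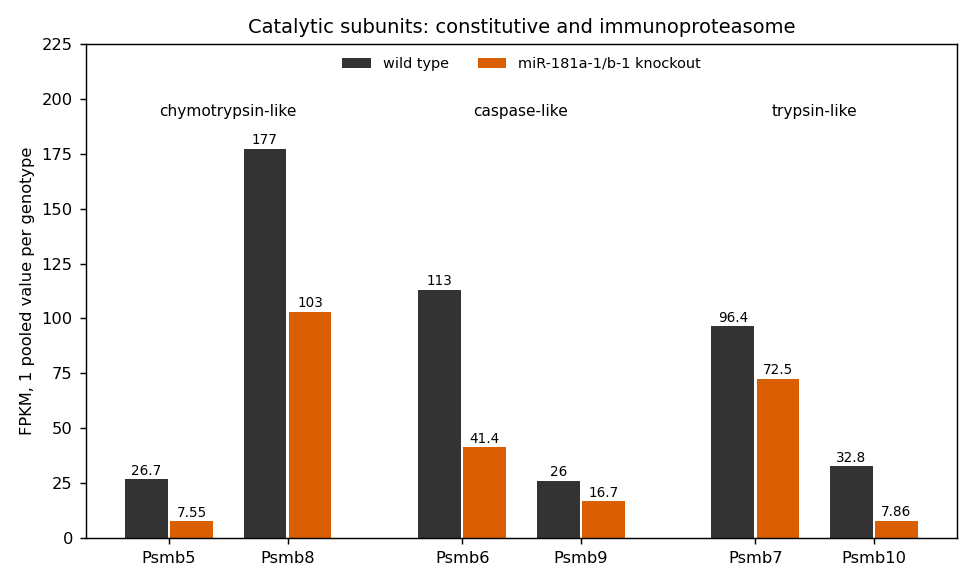
FPKM of each constitutive catalytic subunit and of the immunoproteasome subunit that replaces it, with 1 bar per genotype, no error bars because each bar is a single pooled value, and the value printed above each bar. Psmb8 is far above Psmb5 in both genotypes, and Psmb9 is below Psmb6. The level of Psmb5 is uncertain because it has a near-identical copy elsewhere in the genome. The drop of Psmb10 from 32.8 to 7.86 contrasts with that of Psmb7 from 96.4 to 72.5.

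In the alpha ring, which gates the core, 1 of 7 tested genes (14.3%) was called, near the 15.3% lower among all tested models. The called gene was Psma7, lower at 41.1 FPKM in knockout and 85.0 in wild type cells (log2 ratio -1.05, SE 0.26, q = 0.0011 in the authors' deposited table). Psma6, the most abundant member in the knockout, had 146 and 162 FPKM, and Psma1 had 78.9 and 87.0, with log2 ratios of -0.15 (SE 0.23) and -0.14 (SE 0.25). Psma2 had a log2 ratio of -0.43 (SE 0.25, q = 0.274 in the authors' deposited table), and Psma4 one of -0.22 (SE 0.26). The ring's median was -0.22, near that of all tested models, and changed sign to 0.03 with upper-quartile scaling. Whether the alpha and beta rings differ was not tested. Psma3 and Psma5 were listed far below their ring partners, at 3.62 and 0.693 FPKM in the knockout, although a complete ring holds each alpha subunit. Psma3 shares its model span with Arid4a (62.1 FPKM in the knockout, 43.0 in the wild type) and its SE was 2.89, so its ratio carries almost no information.

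Several proteasome genes have near-identical copies elsewhere in the genome. Against all other loci of the GENCODE M21 transcripts, 9 of the 44 members had a copy of at least 95% identity over at least 200 bases: Psma3, Psma4, Psma5, Psmb3, Psmb5, Psmc1, Psmd2, Psmd11 and Psme2. Their median level was 7.55 FPKM in knockout and 18.2 in wild type cells, against 39.9 and 59.9 for the 35 members without a copy. Psmb5 was the only called gene among the 9, and its copy Gm3375 matched at 98.9% over 796 bases. Psme2, one chain of the interferon-induced PA28 cap, was listed at 0.159 and 0.351 FPKM, and its copy Psme2b matched at 99.4% over 794 bases. How the authors treated reads that match several loci was not given in the sources used here, so the levels of these 9 genes are uncertain. The part of the copies in the low levels was not tested. Without the 9 genes, 12 genes were called lower.

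In the regulatory particle, which binds and unfolds the substrate, 4 of 17 genes (23.5%) were called lower, against 15.3% of all tested models. Among the 6 ATPases of the base, Psmc3 fell from 119 FPKM in the wild type to 64.3 in the knockout (log2 ratio -0.89, SE 0.24, q = 0.0026 in the authors' deposited table). Psmc4 and Psmc5 had log2 ratios of -0.51 (SE 0.29) and -0.55 (SE 0.25) without a call, and Psmc6 was listed at 80.1 FPKM in knockout and 76.4 in wild type cells. The median of the ATPases was -0.40 as deposited and -0.06 after removal of the trend. Among the 11 non-ATPase subunits, Psmd3, a subunit of the lid, was lower at 32.5 against 82.6 FPKM (log2 ratio -1.35, SE 0.26, q = 1.4e-05 in the authors' deposited table). Psmd4, the ubiquitin receptor Rpn10, was lower at 39.9 against 89.0 FPKM (log2 ratio -1.16, SE 0.30, q = 0.00137 in the authors' deposited table). Psmd13, also of the lid, was lower at 26.9 against 45.8 FPKM (in the authors' deposited table, q = 0.0294). Psmd14, the deubiquitinase Rpn11, had 33.4 and 34.9 FPKM, and Psmd2, a docking site for shuttle factors, had 17.3 and 23.3, and neither was called. Psmd11 and Psmd12, both of the lid, had log2 ratios of -0.01 (SE 0.31) and 0.07 (SE 0.24), with 95% intervals of -0.61 to 0.59 and -0.41 to 0.54. The levels of the 17 genes spanned a 5.07-fold range in knockout and a 7.09-fold range in wild type cells. Which particle spanned the wider range rested on genes with near-identical copies. The 14 genes of the constitutive core spanned 210-fold and 120-fold ranges, but without genes that have such copies the range of the other 9 was 3.55-fold and 2.20-fold, against 3.84-fold and 4.49-fold for 14 genes of the regulatory particle. Summed FPKM was 708 in knockout and 1010 in wild type cells for the regulatory particle and 669 and 968 for the constitutive core, a wild type excess of 1.43-fold and 1.45-fold.

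Among the assembly chaperones and caps 2 genes were called, both of them chaperones. These were 1 of 3 base chaperones and the 1 core chaperone, where 15.3% of all tested models were lower. Psmd9, a chaperone that escorts ATPase subunits into the base, was lower at 3.93 against 9.67 FPKM (log2 ratio -1.30, SE 0.30, q = 0.00027 in the authors' deposited table). The other base chaperones were not called: Psmd5 had 17.5 and 19.1 FPKM and Psmd10, also known as gankyrin, 17.1 and 18.0. Psmg3, a chaperone of alpha ring assembly, was lower at 2.54 against 9.02 FPKM (log2 ratio -1.83, SE 0.53, q = 0.00605 in the authors' deposited table). None of the 4 activator genes was called. Psme1, the partner of Psme2 in PA28, had 55.1 FPKM in knockout and 59.9 in wild type cells. Psme3, the nuclear activator PA28 gamma, had 67.6 and 65.6 FPKM, and Psme4, the PA200 activator, had 28.2 and 21.4, the highest ratio of all members at 0.40 (SE 0.25, q = 0.326 in the authors' deposited table). Among the activators the median was -0.04 as deposited and 0.13 relative to the median of all tested models. The inhibitor Psmf1, also known as PI31, had 6.19 and 8.52 FPKM and was not called.

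**Figure D3:**
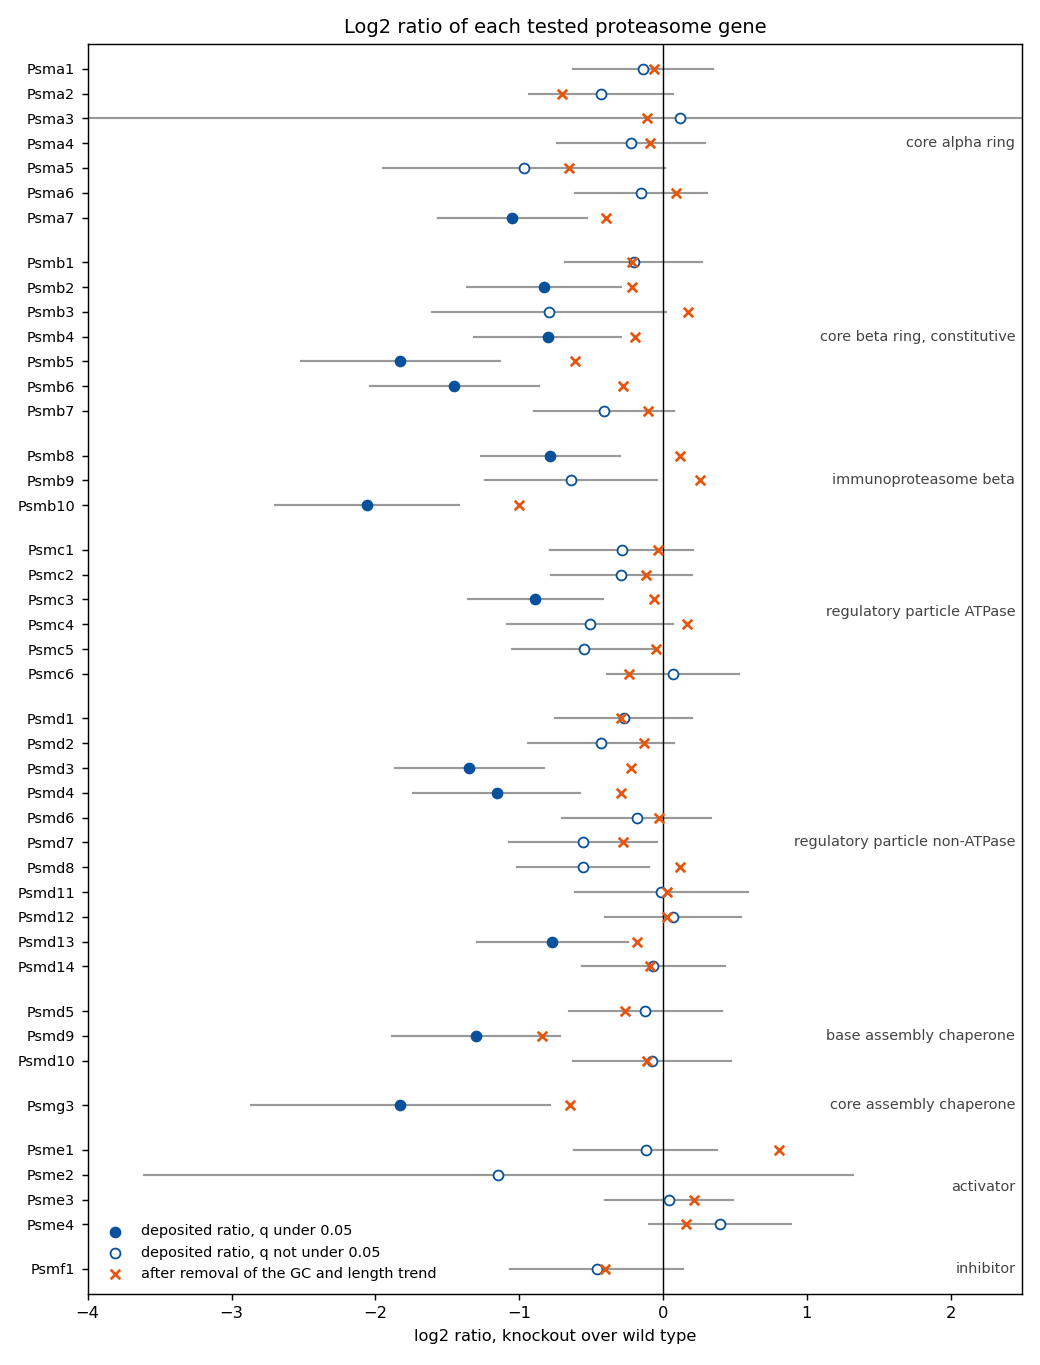
Log2 ratio, knockout over wild type, of the 43 tested genes, with filled points for genes at q under 0.05, open points for the others, bars for the 95% interval from the implied SE, and crosses for the ratio left when the GC and length trend is removed. Filled points all lie left of 0, crosses lie closer to 0 for most called genes, and the bar of Psma3 runs past both edges of the plot.

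The base composition of the transcripts followed the split between called and uncalled members. Across the 43 tested members, Spearman's rho between the log2 ratio and the GC content of the reference transcript was -0.81, and it was -0.71 with the GC content at the third codon position. These are descriptions across genes of the same libraries, and the 8998 coding genes whose mean reached 1 FPKM had a rho of -0.76 with GC content. None of the 22 members under 50% GC was called lower, whereas 13 of the 20 members at 50% or more were. By class, 0 of 10 members under 45% GC were lower (0.621% of all coding genes in that class), and 0 of 12 from 45% to under 50% (3.09%). From 50% to under 55% GC the count was 6 of 12 members (17.8% of all coding genes), and at 55% or more it was 7 of 8 (58.5%). The median log2 ratio of the members was -0.07, -0.28, -0.78 and -1.40 in the 4 classes, from low to high GC, and that of all coding genes was 0.22, -0.02, -0.45 and -1.06. In each class the members' median was thus lower than that of all coding genes, and no test of this difference was made. The subgroups differed in GC as well, with a median of 45% in the alpha ring, 52.2% among constitutive beta genes and 55.8% in the immunoproteasome.

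**Figure D4:**
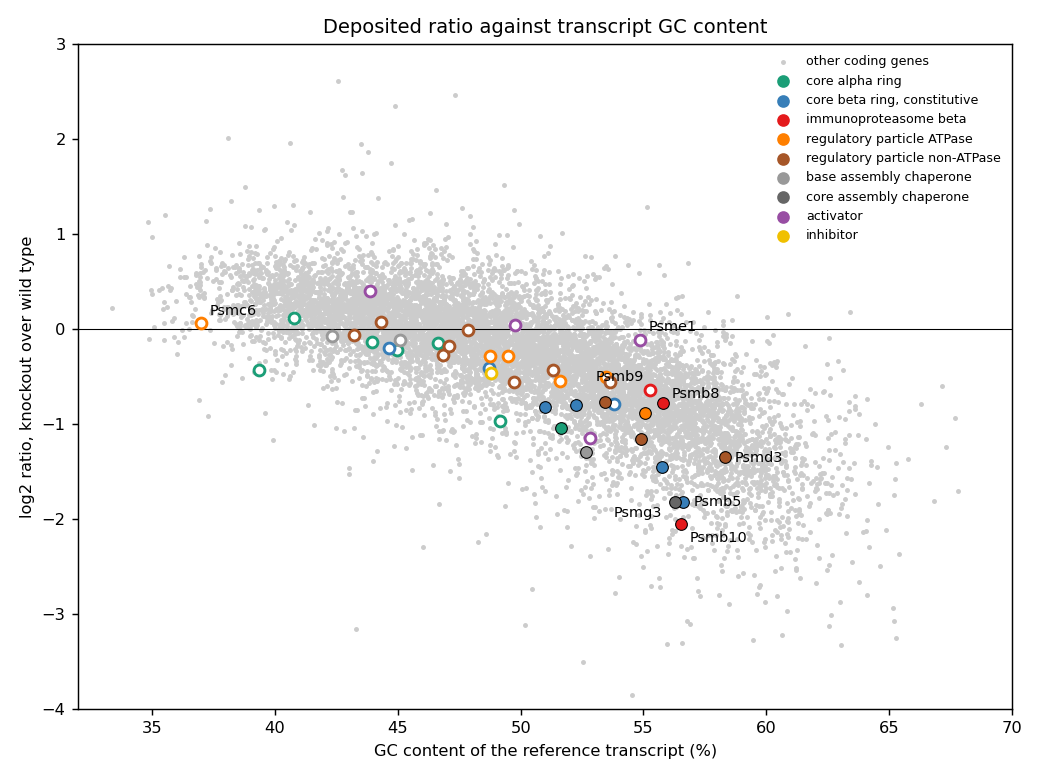
Log2 ratio, knockout over wild type, against the GC content of the reference transcript in percent, for the proteasome genes (coloured by subgroup, filled where q was under 0.05) over 8998 coding genes in grey, 8 of which lie outside the axes. Members run down the same slope as the grey points, from Psmc6 at 37.0% GC near 0 to Psmd3 at 58.3% GC and Psmb10 at 56.5% GC, with Psme1 above and Psmb10 below most genes of their GC.

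The start of the coding sequence shows this difference in composition only in part. The 4 sequences below are the first 120 coding bases of the reference transcripts, with G or C at the third codon position in capitals. They were chosen as the members with the lowest and the highest GC content (Psmc6 and Psmd3) and as the trypsin-like pair whose ratio differed most (Psmb7 and Psmb10).
Psmc6: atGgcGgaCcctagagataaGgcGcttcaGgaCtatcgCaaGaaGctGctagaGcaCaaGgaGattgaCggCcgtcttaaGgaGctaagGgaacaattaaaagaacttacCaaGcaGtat
Psmd3: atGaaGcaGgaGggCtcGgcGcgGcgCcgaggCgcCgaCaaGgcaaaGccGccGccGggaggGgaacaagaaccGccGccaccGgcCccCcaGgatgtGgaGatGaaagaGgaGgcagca
Psmb7: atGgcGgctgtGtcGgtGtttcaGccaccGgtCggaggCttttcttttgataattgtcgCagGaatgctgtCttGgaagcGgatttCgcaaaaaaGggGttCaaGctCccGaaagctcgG
Psmb10: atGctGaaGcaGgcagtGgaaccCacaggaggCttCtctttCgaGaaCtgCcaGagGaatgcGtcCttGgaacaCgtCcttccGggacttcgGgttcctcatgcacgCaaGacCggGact
Of the 40 codons in these stretches, 23 ended in G or C in Psmc6, 29 in Psmd3, 22 in Psmb7 and 25 in Psmb10. Over the whole coding sequence the share was 36% in Psmc6, 72.6% in Psmd3, 49.1% in Psmb7 and 64.5% in Psmb10, so the first bases of Psmc6 were richer in G and C than the rest of that gene.

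A robust regression on splines of GC content and log2 length took up 59.0% of the log2 ratio's variance among the 8998 coding genes, and its residual is the value after removal of the trend. On that scale 0.956% of all genes were called lower and 0.811% higher at a residual q under 0.05, the Benjamini-Hochberg adjusted normal tail of the residual over the implied SE, and none of the 42 members that reached a mean of 1 FPKM was called. The median of the 42 was -0.11. At an unadjusted p under 0.05, Psmb10, Psmd9 and Psma2 were lower and Psme1 was higher. How many of the 8998 genes passed this unadjusted threshold was not computed, so these members were not shown to stand out from other genes. Psme1 had the highest residual of the members, 0.80 against -0.12 as deposited (residual q = 0.0712), since the trend at its GC content, 54.9%, lies below 0. Psmd9 went from -1.30 to -0.84 (residual q = 0.136), and Psma2 from -0.43 to -0.71 (residual q = 0.147). With GC content and length of the coding sequence in place of the transcript, an alternative chosen after seeing the data, 1 member was called lower, Psma7 (log2 -0.88, residual q = 0.023), against 1.49% of all genes. Psmb10 was at -0.99 (residual q = 0.0520) and Psme1 at 0.13 on that scale. Whether the trend with base composition comes from the libraries or from the genotype was not tested, and with 1 pooled value per genotype the 2 cannot be told apart.

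**Figure D5:**
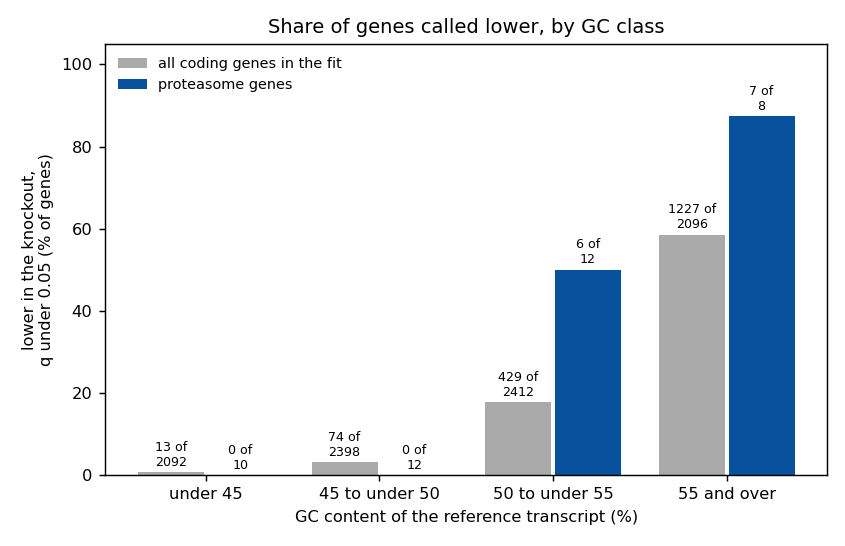
Share of genes called lower in the knockout at q under 0.05, in percent, in 4 classes of transcript GC content, with grey bars for all coding genes of the fit, blue bars for the proteasome genes and counts above the bars. Both shares climb from class to class, from 13 of 2092 genes and 0 of 10 members under 45% GC to 1227 of 2096 genes and 7 of 8 members at 55% or more.

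Promoter windows were searched because proteasome genes are known to be induced together by Nfe2l1 (Nrf1) when proteasome activity is short, and the immunoproteasome by interferon. RefSeq windows (GRCm38.p6, 300 bases around a start site) matched 37 of the 44 genes, in 40 windows, and both strands were searched in these and in 32851 windows of all genes. The antioxidant response core TGACNNNGC, bound by Nfe2l1 and Nfe2l2, was in 15% of the member windows and 12.4% of all windows. The interferon response core GAAANNGAA was in 15% and 8.56%, the STAT site TTCNNNGAA in 5% and 8.30%, and the CCAAT box in 32.5% and 37.4%. The ETS core CCGGAAG was in 35% and 8.86%, with 3 of the 10 called genes that have a window among its holders, and the GC box GGGCGG in 57.5% and 35.7%. No test was made of these shares, and a match is a description of letters only. Psmb8 held a STAT match, and the windows of Psmb9 and Psmb10 held none of the first 3 motifs. The antioxidant response core was in windows of 6 genes. Psmb5, Psmb6 and Psmd9 were called lower, whereas Psmc6, Psmd12 and Psme4 were not called, with log2 ratios of 0.07, 0.07 and 0.40. A link between this motif and the ratios was not tested. The windows of Psmb5 and Psmb6 are shown because these constitutive catalytic genes had the lowest ratios among the constitutive core subunits. Both also hold the antioxidant response core, in capitals, at 47 and 9 bases before the start site.
Psmb5, chr14:54617946-54618245, minus strand: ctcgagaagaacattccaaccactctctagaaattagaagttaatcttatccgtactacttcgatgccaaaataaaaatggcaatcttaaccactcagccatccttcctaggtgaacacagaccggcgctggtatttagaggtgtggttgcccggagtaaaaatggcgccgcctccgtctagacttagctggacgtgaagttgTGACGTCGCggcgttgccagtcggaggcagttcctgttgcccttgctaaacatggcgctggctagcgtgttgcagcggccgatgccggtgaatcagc
Psmb6, chr11:70525107-70525406, plus strand: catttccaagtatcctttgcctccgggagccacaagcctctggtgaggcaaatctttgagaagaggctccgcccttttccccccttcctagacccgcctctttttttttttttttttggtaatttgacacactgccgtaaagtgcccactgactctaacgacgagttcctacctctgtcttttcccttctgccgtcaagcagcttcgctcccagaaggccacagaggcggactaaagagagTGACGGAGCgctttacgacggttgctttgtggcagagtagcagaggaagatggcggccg
Nfe2l1 itself was listed at 11.5 FPKM in knockout and 17.1 in wild type cells, with a log2 ratio of -0.57 (SE 0.29, q = 0.17 in the authors' deposited table) that was not called.

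Among 38 tested genes that build, feed and use the proteasome, 7 were lower, or 18.4%, near the 15.3% of all tested models. Of 15 tested genes for assembly, associated factors and gene control, 2 were lower and 0 higher, with a median log2 ratio of -0.04. Pomp, the maturation factor of the core, had 68.9 FPKM in knockout and 99.8 in wild type cells (q = 0.157 in the authors' deposited table). Adrm1, the ubiquitin receptor Rpn13, was lower at 3.43 against 7.37 FPKM (in the authors' deposited table, q = 0.0289). Adrm1 was not called relative to the median of all tested models (q = 0.083), and its log2 ratio was 0.32 after removal of the trend. Shfm1, which encodes the small lid subunit Sem1, was lower at 169 against 318 FPKM (log2 ratio -0.91, SE 0.25, q = 0.0028 in the authors' deposited table). Its transcript has 37.3% GC, unlike the called members, and it was still lower after removal of the trend (-1.11, residual q = 0.00153), but not with the coding sequence in the trend (-0.38, residual q = 0.535).

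Of 13 tested genes for ubiquitin supply and shuttling, 3 were lower (23.1%, against 15.3% of all tested models) and 0 higher, with a median log2 ratio of -0.48. Among them was Ubb, a polyubiquitin gene, at 236 FPKM in knockout and 701 in wild type cells (log2 ratio -1.57, SE 0.23, q = 3.3e-09 in the authors' deposited table). Ubb was lower after removal of the trend as well (-0.83, residual q = 0.0258), and it has near-identical copies elsewhere in the genome, so its level is uncertain.

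Of 10 tested genes of interferon induction and peptide use, 2 were lower, Tap2 and Irf8, and 0 were higher, with a median of -0.19. This was 20% lower, against 15.3% of all tested models. The inducer Irf1 had 15.3 FPKM in knockout and 17.0 in wild type cells and was not called. B2m, the light chain of MHC class I, had 686 and 498 FPKM (log2 ratio 0.46, SE 0.21, q = 0.133 in the authors' deposited table). It was called higher relative to the median of all tested models (log2 ratio 0.63, q = 0.0303) and with the coding-sequence trend (0.77, residual q = 0.0133). B2m was not called after removal of the trend (0.58, residual q = 0.163). Irf8 was listed at 0.701 and 1.59 FPKM, under the level of all 3 immunoproteasome genes, and it was not called relative to the median of all tested models (q = 0.102) or after removal of the trend (-0.46).

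Markers of other cell types, which can express the immunoproteasome too, were looked up as well. The 8 markers of macrophages and dendritic cells summed to 6.15 FPKM in knockout and 16.8 in wild type cells, with 1 called lower, Cd74 (1.99 against 7.89 FPKM). Most of both sums came from Cd74, H2-Ab1 (2.18 against 4.95 FPKM, not called) and H2-Aa (1.08 against 2.12 FPKM, not called). Csf1r, Itgax, Emr1 and Flt3 were under 1 FPKM in both genotypes and not tested. Cd74 has a transcript of 56.6% GC. It was not called after removal of the trend (-0.95, residual q = 0.314) or with the coding-sequence trend (-1.19, residual q = 0.071). The 4 B cell markers summed to 15.9 and 20.4 FPKM, nearly all of it Cd79b. The 8 listed markers of thymic epithelium summed to 14.9 and 8.83 FPKM, most of it Ly75, which was higher (11.8 against 5.15 FPKM). Krt18 was lower (0.0697 against 0.465 FPKM), and 6 of the 8, Krt18 among them, were under 1 FPKM in both genotypes. Foxn1 and Cldn3 were not tested, at 0 in the knockout and at 0.00991 and 0.0296 FPKM in the wild type. Red cell markers summed to 0.670 and 1.35 FPKM. The sum for macrophages and dendritic cells was lower in the knockout, as Psmb8 and Psmb10 were, and its part in their ratios was not tested. In RNA from a sorted population, fewer cells with a transcript and less of it per cell cannot be told apart.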

How the data were processed

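RNA of 3 sorted populations per genotype was sequenced. Per the labels' protocols, the TruSeq RNA kit was used for the libraries, and the submitters' processing notes name TopHat2 and the build mm9. The authors deposited 1 FPKM value per genotype and model, a log2 ratio and a test statistic (a score), and p-values and q-values, per the file headers. The counting and testing tools were not given in the sources used here. Deposited q-values equalled Benjamini-Hochberg adjusted p-values over tested models within 1.89e-06.

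The members and all lists were chosen with earlier results of these data known. Every symbol of the rule may be named. Of the companion lists, 8 listed genes and up to 4 called members per direction by smallest p are named, some of which are not reported here. The implied SE is the size of the log2 ratio over the statistic. GC content and length came from 1 GENCODE M21 transcript per gene, which need not be the isoform expressed, and genes whose transcript exceeded 1.2 times the model span were left out. The trend was fitted with statsmodels 0.14.6 (robust regression, splines with 5 pieces). It was checked only on data simulated from the fitted trend itself, which cannot show whether real effects linked to GC content were removed. Copies were found with BLAST+ 2.17.0. Alternatives were q under 0.01, centring, trend removal, a minimum of 1 FPKM, a pseudocount of 1 FPKM, upper-quartile scaling, row choice and, added later, leaving out genes with copies and the coding-sequence trend.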

Additional observations from a re-analysis of the deposited data

How the results depend on the processing

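The count of 13 lower members was 9 at q under 0.01 and 9 after centring (the same 9 genes in both). It was 12 without genes that have a near-identical copy and 13 with a minimum of 1 FPKM. It was 0 once the GC and length trend was removed and 1 with the coding-sequence trend. Apart from the trend settings, the share of all tested models under these alternatives was not computed. Removal of the GC and length trend took the median log2 ratio of all members to -0.11. It took that of constitutive beta genes to -0.21 and that of the immunoproteasome to 0.12. The median became -0.056 for ATPases, -0.13 for non-ATPase subunits and 0.22 for activators. The activator value covers the 3 activators in the fit, without Psme2, and the deposited median of these 3 was 0.043. With the coding-sequence trend the constitutive beta median was -0.39 and the immunoproteasome median 0.069, and with upper-quartile scaling the median of all members was -0.21, of the alpha ring 0.032, of ATPases -0.15, of non-ATPase subunits -0.18 and of activators 0.21. Signs changed once the GC and length trend was removed for Psme1 (0.80), Psma3 (-0.11), Psma6 (0.090), Psmb3 (0.17), Psmb8 (0.12), Psmb9 (0.26), Psmc4 (0.17), Psmc6 (-0.24), Psmd11 (0.031) and Psmd8 (0.12). Signs changed after centring for Psme1 (0.045), Psmd10 (0.089), Psmd5 (0.044), Psma1 (0.025), Psma6 (0.015), Psmd11 (0.15) and Psmd14 (0.10), all of them uncalled genes. Lower assembly and associated genes numbered 1 at q under 0.01, 1 after centring, 1 once the GC and length trend was removed and 0 with the coding-sequence trend. Lower interferon and peptide genes numbered 1, 1, 0 and 0 under these 4 settings, and 1 gene of that list was higher after centring and 1 with the coding-sequence trend. Lower ubiquitin genes numbered 1 once the GC and length trend was removed. By construction centring adds 0.17 to every log2 ratio, and the cause of the other changes was not tested. With a pseudocount of 1 FPKM all 43 member ratios kept their sign. No paired analysis was possible because the table holds 1 pooled value per genotype, and for the same reason no replicate could be left out. Depth is unknown, and the median implied SE of 0.35 over tested models limits which differences could be called.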
